A study of Mus musculus with 2 samples.

Results

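Disease-associated microglia genes were described in total RNA of the hippocampus of aged mice. The set holds 10 genes, chosen by symbol: Trem2, Tyrobp, Cst7, Clec7a, Itgax, Lpl, Spp1, Gpnmb, Axl and Cd68. All 10 symbols matched 1 gene identifier each in the deposited tables, which list 55536 genes. The animals were female B6CASTF1/J mice of 18 to 20 months, F1 animals from a C57BL/6J by CAST/EiJ cross, supplied by The Jackson Laboratory. RNA input was 300 ng a library, with synthetic ERCC RNAs spiked in and ribosomal RNA reduced. The labels name no treatment and form 1 group of 2 libraries, biological replicates 1 and 2. Each library has its own biosample label but both carry 1 donor label, and the labels do not say if they are separate animals. The spread between the libraries may therefore be technical, and without a second group no p-value was computed.

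Microglia are the resident macrophages of the brain. The disease-associated state is a programme first described around amyloid deposits, in which homeostatic genes such as P2ry12 and Tmem119 go down while lipid-handling, lysosomal and phagocytic genes go up. Its later stage depends on TREM2, a lipid-binding surface receptor that signals through the adaptor TYROBP, whose phosphorylated tail recruits the kinase SYK. In bulk tissue, fewer cells of a type and less RNA per cell cannot be told apart, and most of these genes are also used by other cells. Lpl is used by neurons, Axl by vascular and other cells, and Spp1 by border macrophages and fibroblasts.

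Replicates 1 and 2 held 35358140 and 36307291 gene-assigned counts, of which 3521 and 3579 fell on the members. The tissue label was checked with marker lists: all 5 excitatory neuron, 5 astrocyte and 5 oligodendrocyte genes, and all 12 homeostatic microglia genes, reached 1 TPM in each library. TPM is an abundance per transcript length, scaled to the same total in every library. Levels are RSEM-layout TPM, as the mean ± SD of both libraries, unless the second deposited quantification, in the kallisto layout, is named. The reads come from a hybrid and were counted on mm10, a C57BL/6J-based build. How many CAST/EiJ reads that lost was not tested.

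Some members are read from transcripts that differ in the protein they encode. The following 4 coding stretches, on mm10, are shown because they separate transcripts to which either layout assigned reads. Cd68-202 was assigned reads in the kallisto layout only. Each is written 5′ to 3′ on the gene's strand from the GENCODE M21 transcripts. Capitals mark the bases present in the named transcript and missing from its partner, and lower case marks 12 shared coding bases on either side.
Trem2-202: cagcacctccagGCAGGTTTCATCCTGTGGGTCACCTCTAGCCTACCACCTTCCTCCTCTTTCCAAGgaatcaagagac
Axl-201: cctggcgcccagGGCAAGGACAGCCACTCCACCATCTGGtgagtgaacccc
Clec7a-204: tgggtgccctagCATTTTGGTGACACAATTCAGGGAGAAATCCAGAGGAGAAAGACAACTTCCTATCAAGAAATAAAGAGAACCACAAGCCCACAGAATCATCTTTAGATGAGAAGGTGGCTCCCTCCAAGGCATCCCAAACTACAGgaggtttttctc
Cd68-202: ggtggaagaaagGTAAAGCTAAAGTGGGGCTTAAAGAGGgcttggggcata
The Trem2-202 stretch lies at chr17:48351691-48351745 on the plus strand, as a 5′ extension of an exon. Its 55 bases are not a multiple of a codon, so the reading frame after it differs from that of Trem2-201, and the coding sequence has 249 codons in place of 227. The Axl-201 stretch is a whole exon of 27 bases at chr7:25773099-25773125 on the minus strand, which Axl-202 skips, giving 888 and 879 codons. The Clec7a-204 stretch is a 135-base exon at chr6:129468869-129469003 on the minus strand that Clec7a-202 skips, giving 244 and 199 codons. The Cd68-202 stretch at chr11:69665476-69665502 on the minus strand extends an exon of Cd68-201 by 27 bases in frame, from 326 to 335 codons.

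Spp1 has a pair of annotated starts, and the deposited quantifications divide its reads between them in opposite ways, as described with its values. The 250 bases before each start are shown from RefSeq on GRCm38.p6, plus strand, 5′ to 3′. Capitals mark GAGGAAGT, a sequence bound by the macrophage factor PU.1, searched on both strands.
Spp1 distal start, chr5:104434861-104435110: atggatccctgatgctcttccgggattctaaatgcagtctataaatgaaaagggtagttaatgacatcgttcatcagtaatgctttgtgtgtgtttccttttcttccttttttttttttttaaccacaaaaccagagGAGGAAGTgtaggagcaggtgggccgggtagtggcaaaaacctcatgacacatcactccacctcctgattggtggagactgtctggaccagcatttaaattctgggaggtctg
Spp1 proximal start, chr5:104435942-104436191: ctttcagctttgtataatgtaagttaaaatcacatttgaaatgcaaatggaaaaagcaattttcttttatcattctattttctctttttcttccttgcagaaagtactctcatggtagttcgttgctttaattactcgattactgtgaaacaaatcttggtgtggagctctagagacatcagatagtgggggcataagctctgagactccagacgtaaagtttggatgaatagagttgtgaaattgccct
The distal window holds GAGGAAGT once and the proximal window does not hold these letters. Over all RefSeq promoters of the same length, 802 of 32851 hold it, or 2.44%. Of 10 promoter entries that matched 8 members, the distal Spp1 entry was the single one with these letters.

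The members fell into 3 ranges of level. Axl, Lpl and Tyrobp lay between 13.8 and 17.0 TPM, Cd68, Trem2, Spp1 and Gpnmb between 2.78 and 5.40 TPM, and Cst7, Itgax and Clec7a between 0.18 and 0.24 TPM. A gene counted as detected when it reached 1 TPM in each library, which 7 of 10 members did, set against 57.8% of 22028 protein-coding genes. The member medians of replicates 1 and 2 were 3.89 and 4.62 TPM, set against 3.3 and 3.23 TPM for all protein-coding genes. The 3 genes below the threshold were below it in both libraries and in both layouts.

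**Figure D1:**
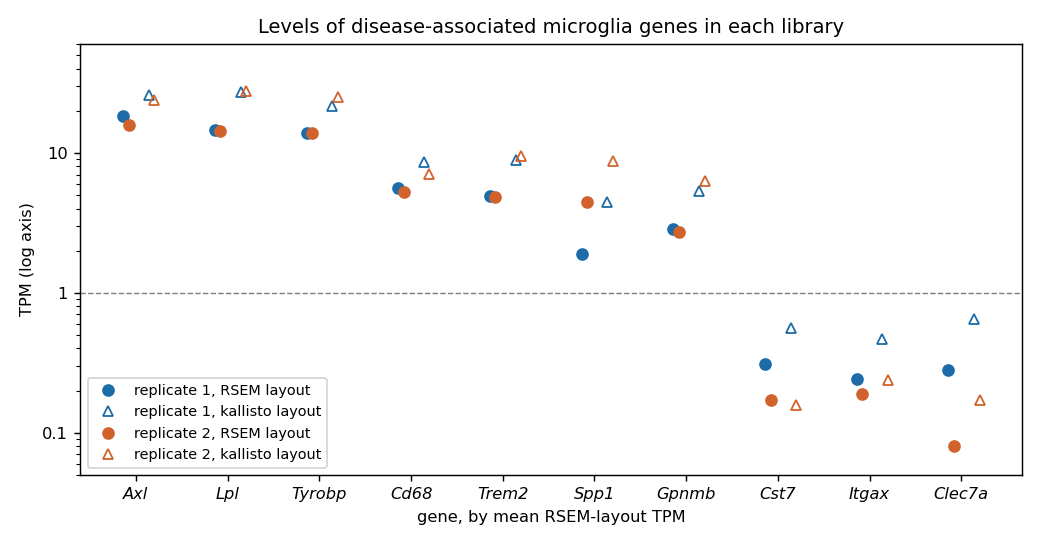
TPM of each member in each library on a log axis, with filled circles for the RSEM layout and open triangles for the kallisto layout, and a dashed line at 1 TPM. The libraries overlie each other for most members. Spp1, Clec7a and Cst7 are separated by library in both layouts, Clec7a and Cst7 from 9 RSEM-layout counts or fewer in each library. Cst7, Itgax and Clec7a lie below the line.

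Trem2 encodes the receptor that the later stage of the programme depends on. It stood at 4.92 and 4.82 TPM in replicates 1 and 2, from 159 and 160 counts, a mean of 4.87 ± 0.0707 TPM (SD, n = 2). Its level exceeded that of 54.2% of protein-coding genes. The scaled count was 1.02-fold higher in replicate 1, with an exact 95% interval of 0.812 to 1.28 that covers counting error only, as do all intervals here.

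Trem2-201 led in both layouts, with 78.4% and 71.1% of the gene's TPM in replicates 1 and 2. Trem2-202, the form with the printed extension, took 14.0% and 22.5%, and in the kallisto layout 10.4% and 20.9%. These shares rest on 16.9 and 28.3 estimated counts. The retained-intron transcript Trem2-203 took 7.63% and 6.36% of TPM but 28.2% and 24.5% of the estimated counts, since it is 4784 bases long against 1088 for Trem2-201.

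Tyrobp encodes the adaptor, also called DAP12, through which TREM2 and several other receptors signal. It stood at 13.8 TPM in both libraries, from 167 and 176 counts, with a mean of 13.8 ± 0.0283 TPM. The Tyrobp level was 2.84 ± 0.0354 times that of Trem2 per length, and 2.55 ± 0.130 times in the kallisto layout. Per length, Tyrobp RNA therefore exceeded Trem2 RNA in each library of each layout. By counts the genes were close in the RSEM layout, where Trem2 had 159 and 160. In the kallisto layout Tyrobp had fewer counts, 107 and 127 against 187 and 189 for Trem2.

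The transcript of Tyrobp was not settled by these tables. Tyrobp-201 took 76.2% and 91.5% of TPM in the RSEM layout, while Tyrobp-202 took 85.2% and 84.4% in the kallisto layout. The transcripts share 564 bases and Tyrobp-202 has 33 more, so few reads can separate them. Hcst, which encodes the related adaptor DAP10 and lies 126 bases from Tyrobp on the opposite strand, had 2 counts in each library.

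The signalling list downstream of the receptor and adaptor held 14 genes, of which 9 were detected. Syk, the kinase recruited by the adaptor, was at 1.09 and 0.97 TPM, a mean of 1.03 ± 0.0849 TPM, with 122 counts in each library. The highest members were the broadly used adaptor Grb2 at 79.2 ± 3.97 TPM and the kinase subunits Pik3r1 at 34.1 ± 2.81 TPM and Pik3cd at 8.96 ± 0.431 TPM. Card9, an adaptor downstream of SYK, was at 0.60 and 0.83 TPM. Of the 10 that averaged 50 counts or more, none was over 2-fold apart between the libraries.

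A list of 8 genes held ligands of TREM2, the AXL family and the receptor encoded by Csf1r, and the proteases that cut TREM2. All were detected, from 4.07 to 1073 TPM. Apoe, a lipid carrier and TREM2 ligand made mainly by astrocytes, was at 1116 and 1030 TPM, and Clu, another such carrier, at 416 ± 4.79 TPM. Adam10 and Adam17, the proteases that shed the TREM2 ectodomain, were at 28.2 ± 0.898 and 5.88 ± 0.156 TPM. The lowest of the list was Pros1, a ligand of the AXL family, at 4.07 ± 0.693 TPM.

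Clec7a encodes dectin-1, a receptor for fungal beta-glucan. It was listed at 0.28 and 0.08 TPM in replicates 1 and 2, from 9 counts (exact Poisson 95% interval 4.12 to 17.1) and 5 counts (1.62 to 11.7). M21 annotates the gene as a polymorphic pseudogene. The intervals overlap, so a difference was not detectable at this depth. In replicate 1, 2.57 estimated counts on the 707-base Clec7a-202, which skips the printed exon, made 58.8% of the gene's TPM, and in replicate 2 that transcript had 0. All of the replicate 2 counts were on Clec7a-204. With posterior mean TPM the levels were 0.44 and 0.24.

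Itgax encodes CD11c, the alpha subunit that pairs with the beta subunit encoded by Itgb2. It was at 0.24 and 0.19 TPM, from 16 counts (interval 9.15 to 26.0) and 15 counts (8.40 to 24.7). Itgam, which encodes the CD11b alpha subunit and lies 11055 bases away, was at 4.51 and 4.39 TPM, or 20.9 ± 3.05 times Itgax. Itgb2 was at 1.83 and 2.10 TPM. The low-level CD11c signal came mostly from the full-length Itgax-201, with 14.8 and 13.4 estimated counts. Itgax-204, a retained-intron transcript, took 37.5% of TPM in replicate 1 from 1 count, so shares of this gene are carried by single reads.

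Axl encodes a receptor tyrosine kinase that binds phosphatidylserine on dying cells through GAS6. In the RSEM layout it had the highest level of the set, at 18.3 and 15.7 TPM, a mean of 17.0 ± 1.78 TPM above 74.2% of protein-coding genes. Its 1364 and 1343 counts gave a scaled count 1.04-fold higher in replicate 1 (0.964 to 1.12). By deposited TPM the log2 difference was -0.21, outside that counting interval, where the median of all genes was -0.06.

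Axl-201, which holds the printed 27-base exon, carried 92.4% and 92.1% of estimated counts and 64.9% and 69.2% of TPM. Axl-202, which lacks it, took 0.55% and 1.97% of TPM in the RSEM layout and 11.8% and 17.3% in the kallisto layout. Short retained-intron transcripts took much of the rest of the RSEM-layout TPM: Axl-207, of 455 bases, took 18.9% and 14.5% from 31.4 and 22.1 estimated counts. The kallisto layout gave Axl-207 none and gave 20.7% and 11.7% to the short coding transcript Axl-204.

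The other receptors of this family were also present. Tyro3, the family member typical of neurons, was at 37.8 and 36.3 TPM, 2.19 ± 0.169 times Axl. Mertk, which like Axl serves engulfment, was at 14.8 and 10.9 TPM, 0.750 ± 0.0865 times Axl, and its scaled count was 0.762-fold in replicate 2 (0.707 to 0.822). The shared ligand Gas6 was at 37.9 ± 0.714 TPM.

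Lpl encodes lipoprotein lipase, which releases fatty acids from lipoprotein triglyceride. It was at 14.7 and 14.4 TPM from 1346 and 1371 counts, a mean of 14.5 ± 0.191 TPM, and the scaled counts matched to 1.01-fold (interval 0.932 to 1.08). Lpl-201 took 80.3% and 75.8% of TPM. Lpl-203, annotated as subject to nonsense-mediated decay, took 18.1% and 23.3%, and 18.2% and 24.7% in the kallisto layout; the annotation gives it the same coding bases as Lpl-201 and a different 3′ end.

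The LPL partner list held 6 genes and 3 were detected. Sel1l and Lmf1, which act in the folding and release of the enzyme in the endoplasmic reticulum, were at 64.9 ± 2.56 and 9.71 ± 0.495 TPM. Angptl4, a secreted inhibitor, was at 1.05 and 1.18 TPM. Gpihbp1, which anchors the enzyme to capillaries of peripheral tissue, had 0 counts in both libraries, which allows up to 3 counts in each. Apoc2, the cofactor, had 0 and 1 count.

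Cst7 encodes cystatin F, an inhibitor of lysosomal cathepsins. It was at 0.31 and 0.17 TPM, from 7 counts (interval 2.81 to 14.4) and 4 counts (1.09 to 10.2), on its single annotated transcript. Cst3, which encodes the secreted inhibitor cystatin C, was at 1023 and 965 TPM. Among the cathepsins, Ctsb was at 168 ± 0.580 TPM, Ctsd at 136 ± 6.24 TPM and Ctsl at 42.0 ± 0.983 TPM.

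Cd68 encodes a heavily glycosylated lysosomal membrane protein of macrophages. It was at 5.57 and 5.23 TPM from 159 and 138 counts, a mean of 5.40 ± 0.240 TPM. The scaled count was 1.18-fold higher in replicate 1 (0.933 to 1.49). Lamp1 and Lamp2, the lysosomal membrane proteins of most cells, were at 108 ± 3.92 and 28.4 ± 0.0283 TPM, and Lamp1 was 20.1 ± 0.169 times Cd68.

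Cd68-201 took 98.1% of TPM in replicate 1 and 73.5% in replicate 2. The remainder of replicate 2 was placed differently by the layouts. The RSEM layout gave 26.5% to the processed transcript Cd68-203, from 19.4 estimated counts, and the kallisto layout gave 20.4% to Cd68-202, the form with the printed extension, from 18.9 estimated counts. Both layouts thus gave a larger share to other transcripts in replicate 2, and they did not place it on the same one.

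Gpnmb encodes a transmembrane glycoprotein of lysosomes and melanosomes. It was at 2.86 and 2.70 TPM from 231 and 225 counts, a mean of 2.78 ± 0.113 TPM. Gpnmb-201 took 75.0% and 58.9% of TPM, and Gpnmb-203, which ends in another exon and has 526 codons in place of 574, took 15.7% and 37.9%. In the kallisto layout Gpnmb-203 took 19.6% and 23.7%. There, the 365-base decay transcript Gpnmb-202 took 21.4% and 36.2% from 2 and 4 estimated counts. Pmel, the closest relative of Gpnmb and a pigment cell gene, was at 0.08 and 0.27 TPM.

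**Figure D2:**
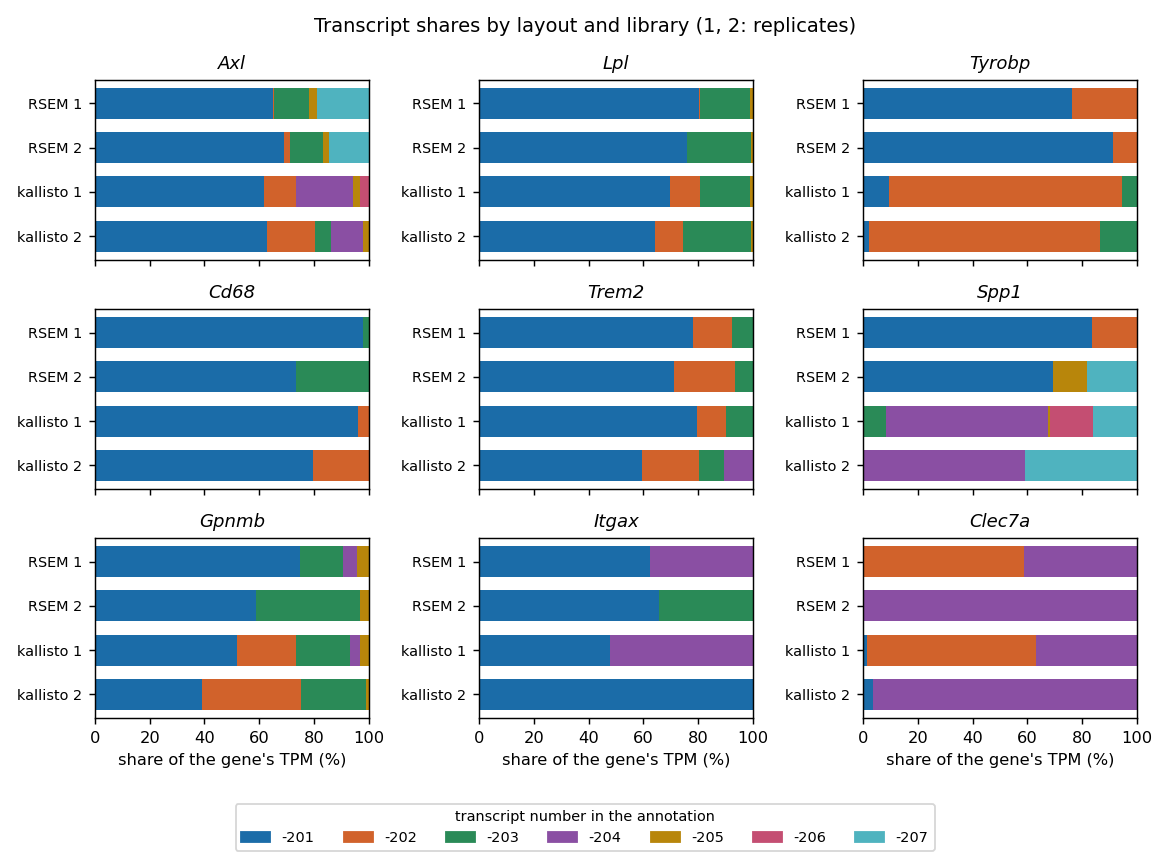
Share of each gene's TPM (percent, horizontal axis) taken by each annotated transcript, in 1 panel for each of the 9 members with more than 1 transcript; bars are the RSEM and kallisto layouts in replicates 1 and 2, coloured by transcript number. Lpl and Trem2 keep 1 leading colour in every bar, and Tyrobp and Spp1 change leading colour between the layouts.

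Across the set, 44 transcripts are annotated. The leading transcript by mean share was the same in both layouts for 8 of 10 members, and in each library of each layout for 6. Both counts include Cst7, which has 1 annotated transcript and so could not differ. Clec7a is among the 8, though its leader changed between the libraries, on 9 and 5 counts. The members whose leader differed between layouts were Tyrobp and Spp1.

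Spp1 encodes osteopontin, a secreted phosphoprotein that binds integrins and CD44. It was at 1.88 TPM in replicate 1 but 4.43 TPM in replicate 2, from 63 and 142 counts, a mean of 3.16 ± 1.80 TPM. In the kallisto layout it was at 4.43 and 8.75 TPM. The scaled count was 2.20-fold higher in replicate 2, with an interval of 1.62 to 3.01, and replicate 2 was the higher library in both layouts.

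Spp1 was the 1 member over 2-fold apart among the 7 that averaged 50 counts or more, set against 0.384% of 14307 genes. It was also the 1 member over 1.2-fold apart, set against 10.4% of those genes. Of genes averaging 50 to 200 counts, the range in which Spp1 lies, 31.4% were over 1.2-fold and 1.33% over 2-fold apart. Tyrobp, Lpl, Trem2, Axl, Gpnmb and Cd68 lay within 1.2-fold. Over the 8 members averaging 10 counts or more, the median log2 difference, replicate 2 minus replicate 1, was -0.04, set against -0.00031 over 18350 genes.

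The RSEM layout put 83.6% and 69.4% of Spp1 TPM on Spp1-201, which begins at the distal start, and none on Spp1-204. The kallisto layout put 59.2% and 59.0% on Spp1-204, which begins at the proximal start, and none on Spp1-201. The short Spp1-207, of 634 bases, took 0% and 18.1% in the RSEM layout and 16.1% and 41.0% in the kallisto layout. Spp1-201 and Spp1-204 have the same coding bases and share 1324 bases, with 86 found only in Spp1-201 and 183 only in Spp1-204. These tables therefore give the osteopontin level with a direction but leave the start in use unread. Gm42793, an annotated gene on the same strand that overlaps Spp1 and spans the proximal window, had 1 count in each library.

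Markers of several other cell types also differed between the libraries. For meningeal fibroblasts, all 8 genes had the higher scaled count in replicate 2, the median log2 difference was 1.05, and Col3a1, Aldh1a2, Igf2, Col1a2, Col1a1 and Slc6a13, 6 of the 8, were over 2-fold apart; their summed level was 58.1 TPM in the former library and 96.4 TPM in the latter. The same direction was seen for all 8 border macrophage genes. Their median log2 difference was 0.44 over the 6 that averaged 10 counts, and their summed level was 11.9 and 15.7 TPM. Of the 4 border macrophage genes that averaged 50 counts, 3 were over 1.2-fold apart and none over 2-fold. The counting intervals of Cd163, Lyve1, Pf4, Ms4a7 and Cbr2 covered 1. Mrc1, which encodes the mannose receptor typical of these macrophages, had 143 and 240 counts, 1.64-fold (1.33 to 2.03). Erythroid genes had a median log2 difference of 0.66, with 5 of 5 higher in replicate 2, mural cell genes 0.48, with 5 of 6, and endothelial genes 0.19, with 6 of 6. Other lists went the other way. Of the choroid plexus genes, 6 of 7 were higher in replicate 1, median -0.94, as were 5 of 5 oligodendrocyte genes, median -0.35. The choroid plexus genes Ttr and Clic6 were over 2-fold apart, at 2.93-fold (2.76 to 3.12) and 2.25-fold (1.69 to 3.02) higher in replicate 1. The part of these cells in the Spp1 difference was not tested. The 12 homeostatic microglia genes had a median log2 difference of 0.08, with 7 higher in replicate 2 and 5 higher in replicate 1.

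**Figure D3:**
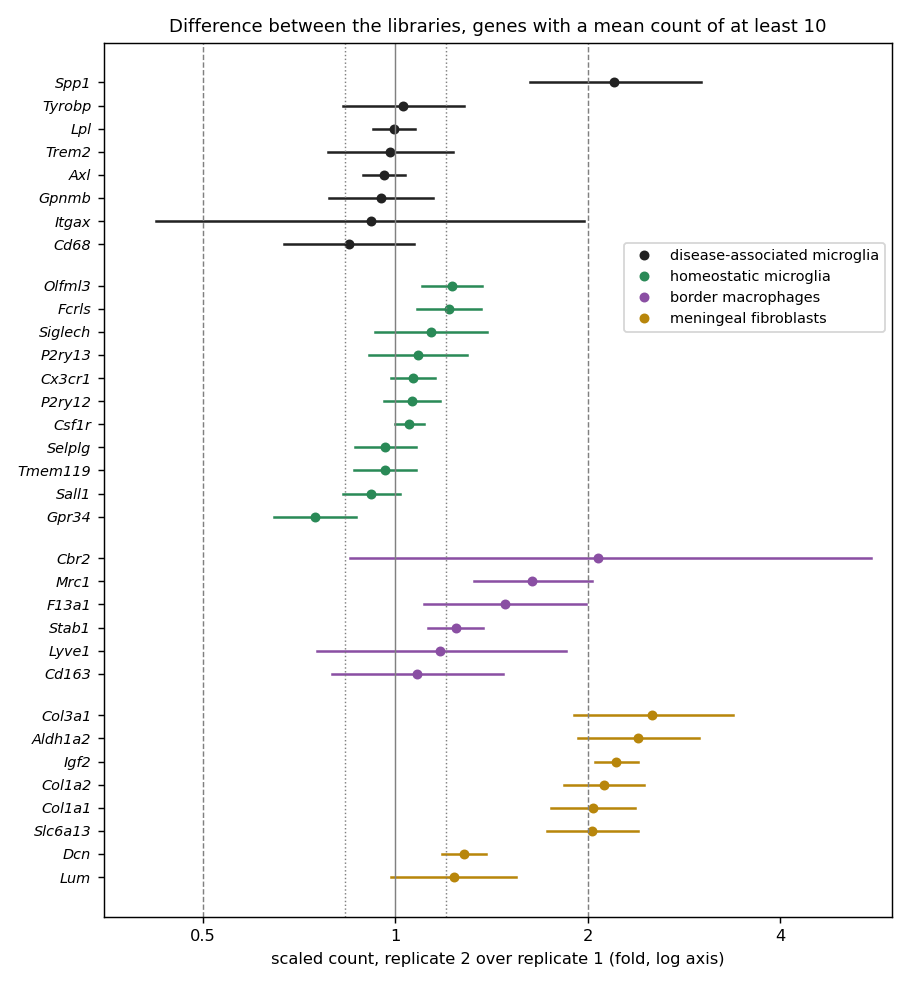
Scaled count in replicate 2 over replicate 1 (fold, log axis) with exact 95% counting intervals, for genes of 4 lists that averaged 10 counts or more; 1 gene is not plotted; dotted lines mark 1.2-fold and dashed lines 2-fold. Spp1 lies at 2.20-fold, among the upper meningeal fibroblast genes and near the border macrophage gene Cbr2 at 2.07-fold. The fibroblast genes Dcn and Lum lie lower, at 1.28-fold and 1.23-fold. The other members plotted lie within the span of the homeostatic microglia genes, Itgax with a wide interval of 0.42 to 1.98.

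Receptors for osteopontin were detected for 6 of 7 genes. Itgav, the alpha subunit of the classical receptor, was at 27.4 ± 2.07 TPM, followed by the beta subunits Itgb5 at 19.2 ± 0.509 TPM and Itgb1 at 13.7 ± 0.205 TPM. Cd44 was at 1.60 and 2.08 TPM, and its scaled count was 1.30-fold higher in replicate 2 (1.05 to 1.62). Itgb3 was lowest at 0.49 ± 0.0141 TPM.

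In order of mean level the members ran Axl, Lpl, Tyrobp, Cd68, Trem2, Spp1, Gpnmb, Cst7, Itgax and Clec7a. Trem2 and Spp1, Spp1 and Gpnmb, Cst7 and Itgax, and Itgax and Clec7a were closer than the larger SD of each pair. In the kallisto layout Lpl stood above Axl, at 27.5 ± 0.532 against 24.9 ± 1.57 TPM, and Trem2 above Cd68, at 9.14 ± 0.454 against 7.85 ± 1.12 TPM. Clec7a also stood above Itgax there, by less than their spread. All 10 members were higher in the kallisto layout, by a median of 1.78-fold, and levels are compared within a layout.

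The homeostatic microglia genes had a higher median than the members. Their medians in replicates 1 and 2 were 10.8 and 11.9 TPM, all 12 were detected, and the lowest, P2ry13, was at 4.02 ± 0.106 TPM. Csf1r, the receptor that microglia need to survive, was at 31.9 ± 0.0778 TPM, and P2ry12, their purine receptor, at 17.6 ± 0.467 TPM. The member median was 0.374 ± 0.0221 of the homeostatic median, and 0.384 ± 0.0168 in the kallisto layout. Axl, Lpl and Tyrobp were above that median in both libraries and the other 7 members below it.

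The rest of the programme was covered by an early-stage and a late-stage list. All 7 genes of the early stage were detected, from Lyz2 at 7.72 ± 0.240 TPM to Fth1, the ferritin heavy chain, at 1390 ± 73.6 TPM, with Apoe and Ctsb between them. Of 16 other late-stage genes 11 were detected. Among these were the adhesion gene Cadm1 at 110 ± 1.63 TPM, the pyrophosphate transporter gene Ank at 68.1 ± 2.64 TPM and Hif1a. The 5 that were not detected included Lgals3, which encodes galectin-3, at 0.43 and 0.30 TPM, and Cd52 at 0.76 and 0.62 TPM; the lowest was Lilrb4a at 0.06 TPM in both. No gene of either list that averaged 50 counts was over 2-fold apart. These are levels of bulk tissue, so detection does not show that microglia made the RNA. The microglial part of either list was not tested.

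Blood-derived leukocytes also express the low members Itgax, Clec7a and Cst7. Of 7 monocyte and neutrophil genes none was detected, 4 had 0 counts in both libraries, and the list summed to 0.84 and 1.65 TPM. Of 6 dendritic cell genes 2 were detected: Zbtb46 at 3.29 TPM and Flt3 at 2.96 TPM on average, both above the low members. Xcr1, Clec9a and Ccr7 of that list had 0 counts in both libraries. The 6 lymphocyte genes were at 0.1 TPM or less on average. Ly6c2 was the highest of the monocyte genes, at 0.70 and 1.34 TPM, and was also above the low members. Their part in the low members' levels was not tested.

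**Figure D4:**
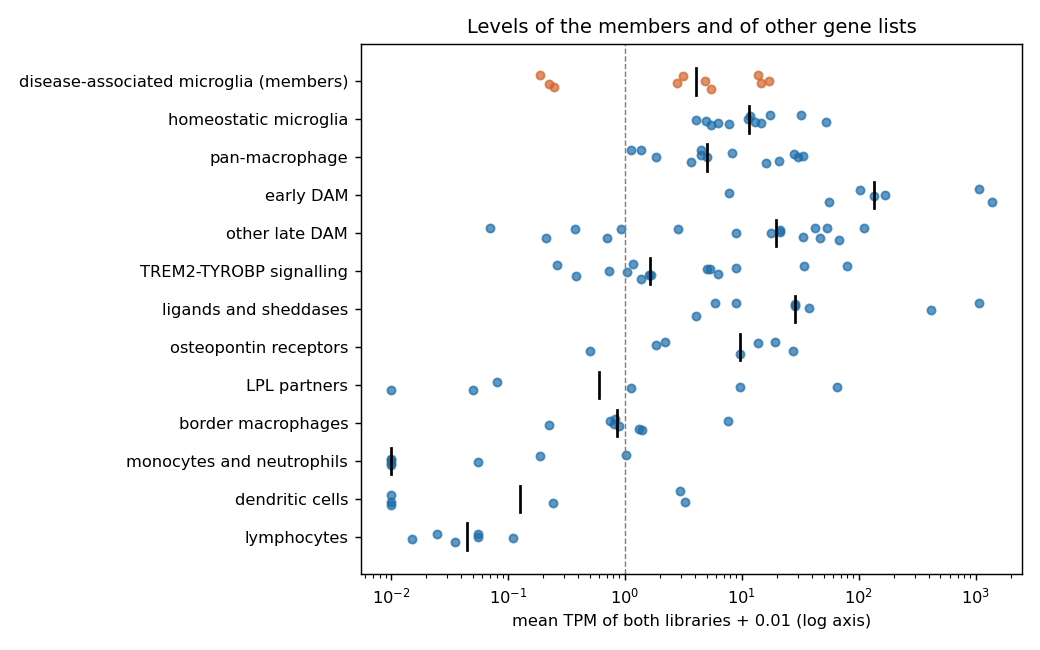
Mean TPM of both libraries plus 0.01 on a log axis, 1 point for each gene of the members and of 12 other lists, with a black bar at the median of each list and a dashed line at 1 TPM. The members span from 0.18 to 17.0 TPM, and the lowest early-stage gene, at 7.72 TPM, lies within that span.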

How the data were processed

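Total RNA-seq of 2 libraries of 1 group was analysed. The deposited gene and transcript tables of RSEM layout hold the authors' expected counts, estimated read numbers that need not be whole, with posterior mean counts, TPM, TPM bounds and FPKM. The percent of a gene's TPM taken by each transcript is also deposited. Per the file headers, the second transcript tables have kallisto's layout, with estimated counts and TPM. The deposited notes name mm10 as build and M21 as GENCODE annotation. For the aligner, the versions and the strand, nothing is given in the sources used here. Some genes' reads may thus be shared with copies or overlapping genes.

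Expected counts were rounded, and edgeR 4.0.16 (R 4.3.3) gave TMM factors from the 17697 genes that filterByExpr kept. ERCC and numbered rows, 0.493% and 0.489% of counts, stayed out. The value that edgeR calls the biological coefficient of variation was 4.66%. It describes the spread between these 2 libraries, which may be technical. Folds are scaled counts of replicate 2 over replicate 1 with exact 95% binomial intervals; log2 differences used a prior count of 2. The tables hold no molecular identifiers, and the intervals and the floor of 3 counts cover counting error alone. A gene was called apart over 2-fold, or 1.2-fold, at a mean count of at least 50. The scaling and the 2-fold call were tested on simulated data with changes larger than that of Spp1. The 1.2-fold call was not tested in this way. Transcripts with a mean share of at least 10% in either layout were considered for naming, and all 10 members are named. From other lists the text draws on the 3 highest genes, the lowest, any gene over 2-fold apart, and known partners; Trem2-203, Itgam, Ctsd, Ctsl, Apoc2, Lgals3 and Cd52 were named after their values were seen, and a gene that the rule covers is not reported here. Members and lists were chosen with earlier results of these data known. Sequences came from GENCODE M21 and RefSeq. Alternatives were DESeq2 1.42.0 size factors, library and ERCC totals, other thresholds and prior counts, FPKM, posterior means, the kallisto layout and each library alone. The rest ran in Python 3.11.15 with scipy 1.17.1, numpy 2.4.6 and pandas 2.3.3.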

Additional observations from a re-analysis of the deposited data

How the results depend on the processing

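The median member level depended on the unit. It was 4.26 TPM, 7.44 in kallisto-layout TPM, 3.12 in FPKM, 6.22 as a mean of members, and 10.4 (RSEM layout) or 10.3 (kallisto layout) when TPM was rescaled to nuclear protein-coding genes, so that the gap between the layouts nearly closed. With either library left out it ranged from 3.89 to 4.62. The 7 members detected became 4 at a TPM of at least 5, and stayed at 7 under the other thresholds and units tried and in each library alone. The Trem2 to Tyrobp ratio was 0.352, and 0.393 in kallisto-layout TPM, with a range of 0.349 to 0.355 over single libraries. The ratio of member to homeostatic medians was 0.374, 0.411 with means, and 0.359 to 0.390 over single libraries. Members over 2-fold apart numbered 1 under each scaling, and 0 at a mean count of at least 200, which Spp1 does not reach. Members over 1.2-fold apart numbered 1, 2 in kallisto-layout counts, where Cd68 joined, and 0 at a mean count of at least 200. The median log2 difference of -0.04 was 0.0806 as a mean, and the log2 difference of Spp1 itself ranged from 1.01 to 1.23 over the alternatives. The same leading transcript in both layouts held for 7 to 8 members over single libraries, including Cst7, which has a single transcript. No paired analysis was possible because both libraries belong to 1 group. Depth limits Cst7, Clec7a and Itgax, with mean counts of 5.5, 7 and 15.5, for which no difference between the libraries could be read.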

Other observations

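Of 21 relatives of the members by gene family or function, 9 were detected, among them Cst3, Lamp1, Tyro3, Lamp2 and Mertk, whose levels are given above. Of the TREM cluster on chromosome 17, Trem1 had 0 counts in both libraries, Treml2 had 7 and 9 counts, and Trem3, Treml1 and Treml4 had at most 3 counts in a library, while Trem2 was above 1 TPM in both. Of the integrin alpha genes related to Itgax, Itgal was at 0.12 and 0.15 TPM and Itgad, which lies 3718 bases from Itgax, at 0.08 and 0.36 TPM from 4 and 11 counts. Clec1a, a neighbour of Clec7a at 9590 bases, was at 1.68 and 2.28 TPM, above Clec7a in both libraries. Lipg, which encodes endothelial lipase, a relative of Lpl, was at 1.04 and 0.86 TPM, and Cst6 was at 4.21 and 4.61 TPM. Trem3, Treml1, Treml4, Itgal, Itgad, Clec1a, Lipg and Cst6 were named after their values were seen.

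Genes shared by all macrophages, a list of 13, had medians of 5.24 and 4.85 TPM in replicates 1 and 2, and 12 of 13 were detected. Ctss, which encodes a macrophage cathepsin, was at 33.7 ± 4.21 TPM, and the C1q subunit genes C1qb and C1qa were at 30.3 ± 2.84 and 28.2 ± 0.693 TPM. Ptprc, which encodes CD45, was the lowest of this list at 0.90 and 1.34 TPM.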
